A study of Mus musculus with 11 samples.

Results

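Transcripts of 3 cytotoxic lymphocyte genes were measured in mouse skin: Klrk1, which encodes the activating receptor NKG2D, Gzma, which encodes granzyme A, and Ifng, which encodes interferon gamma. They were chosen by name, together with Gzmb and Prf1, which encode granzyme B and perforin. Klrk1, Gzma and Ifng are 3 of the 754 genes in the table, whereas Gzmb and Prf1 had no entry and are not analysed here. Skin from the nape of the neck was taken 7 weeks after bone marrow transplant from 3 groups: 3 syngeneic mice, 3 allogeneic wild-type recipients (allo-WT) and 5 allogeneic mast cell-deficient recipients (allo-MCd). Syngeneic and allo-WT recipients were C57BL/6j mice, and allo-MCd recipients were B6.Cg-KitW-sh/HNihrJaeBsmGlliJ mice, which carry the allele W-sh of Kit and lack mast cells, because Kit is the receptor that these cells need to survive. All recipients were irradiated with 850 cGy and injected with bone marrow cells and splenocytes. Per the methods they were female and used at 8 to 10 weeks of age. The W-sh allele is carried in every recipient cell and is not limited to mast cells. By the methods, the allogeneic groups were given LP/J cells and the syngeneic group C57BL/6J cells, but the labels of all 11 mice name LP/J as donor. Taken as the methods state, donor strain and allogeneic response cannot be told apart between syngeneic and either allogeneic group.

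Cytotoxic T cells and natural killer (NK) cells kill targets by releasing granules that hold perforin, granzymes and accessory proteins. NKG2D recognizes ligands induced on stressed cells, and in mouse skin it is also carried by resident gamma delta T cells of the epidermis. Interferon gamma is made by activated T and NK cells and acts through its receptor and the transcription factor IRF1, among others, to induce the chemokines CXCL9, CXCL10 and CXCL11, antigen presentation genes and the feedback inhibitor SOCS1. In graft-versus-host disease, donor T cells are the classical source of these effector molecules.

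The 3 genes lie on different chromosomes. In the RefSeq annotation of GRCm38.p6, Klrk1 (gene 27007) spans chr6:129610323-129623903, Gzma (gene 14938) spans chr13:113093824-113100981 and Ifng (gene 15978) spans chr10:118441046-118445894. The sequences just before their RefSeq start sites are shown as a description. All 3 transcripts were lower in allo-MCd than allo-WT skin, as were 348 of 696 genes tested. Those of Gzma (chr13:113100982-113101231, minus strand) and Ifng (chr10:118440796-118441045, plus strand) are 250 bases long. That of Klrk1 (chr6:129623904-129624114, minus strand) is 211 bases long, because the last 39 bases before the start site used lie inside the annotated gene and are left out. Each reads 5′ to 3′ on the gene's strand, and capitals mark the motif matches described next.
Klrk1: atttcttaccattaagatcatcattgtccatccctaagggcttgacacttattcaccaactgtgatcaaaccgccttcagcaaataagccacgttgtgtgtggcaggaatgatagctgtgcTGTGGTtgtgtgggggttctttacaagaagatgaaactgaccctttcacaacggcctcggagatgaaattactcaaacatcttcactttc
Gzma: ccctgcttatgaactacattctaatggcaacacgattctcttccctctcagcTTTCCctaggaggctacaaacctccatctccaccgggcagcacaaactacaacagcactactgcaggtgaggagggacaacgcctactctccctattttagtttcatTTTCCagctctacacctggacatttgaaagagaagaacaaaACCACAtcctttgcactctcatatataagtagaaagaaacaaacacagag
Ifng: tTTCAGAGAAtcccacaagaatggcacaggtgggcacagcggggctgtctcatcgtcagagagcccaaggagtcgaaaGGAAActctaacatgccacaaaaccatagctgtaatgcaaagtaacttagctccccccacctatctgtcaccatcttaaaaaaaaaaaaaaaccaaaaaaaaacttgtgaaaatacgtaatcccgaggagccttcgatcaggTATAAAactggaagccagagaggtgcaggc
The motifs were chosen after these sequences had been read, and both strands were searched. Of the TATA box, only the exact string TATAAA was searched, and not its variants. It occurred 25 to 30 bases before the start of Ifng and in 12.4% of 32817 mouse promoter windows of 250 bases. The RUNX core TGTGGT occurred once each before Klrk1 and Gzma, on the reverse strand of Gzma, and in 14.0% of windows. The NFAT core GGAAA occurred 2 times before Gzma, on the reverse strand, and 1 time before Ifng, but 55.6% of windows hold it. The STAT motif TTCNNNGAA occurred 241 to 249 bases before Ifng and in 7.01% of windows. Neither the AP-1 motif TGANTCA (6.75% of windows) nor the T-box motif AGGTGTGA (1.12%) had a match before any of the 3 genes. No matches overlapped, and a match describes letters in the reference and not a bound site.

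Transcripts were measured on a NanoString panel for myeloid innate immunity, in which color-coded probes count single RNA molecules, and values are normalized counts on a linear scale. Counts recovered from these values totalled 831632 to 1460260 per mouse. Negative control probes, which have no target in the sample, gave 2 to 26 raw counts. The background of each mouse was taken as the mean of its 8 negative controls plus 2 SD and lay at normalized values of 14.3 to 37.5. Mouse 1 of the allo-WT group stood apart, with the lowest total and 3975 counts of its strongest positive control, against 17615 to 33547 in the other 10 mice. Groups were compared with limma on log2(value + 1), and the threshold for a call was an adjusted p of 0.05 over the 696 genes tested. All differences are in these log2 units, in which changes of genes near background are understated. Over all genes tested the median difference was 0.21 between allo-WT and syngeneic skin (allo-WT minus syngeneic), -0.72 between the allogeneic groups (allo-MCd minus allo-WT) and -0.59 when allo-MCd was set against syngeneic skin (allo-MCd minus syngeneic). For Klrk1, Gzma and Ifng, values after each mouse was scaled to its median gene are therefore given beside the differences, and for the other genes where they are stated. In this scaling the same medians were -0.04, 0.12 and -0.01. As a check of the labels, Kit was above background in 3 of 3 syngeneic, 2 of 3 allo-WT and 0 of 5 allo-MCd mice, and the mast cell protease genes Cma1 and Cpa3 were lower in allo-MCd than allo-WT skin by log2 differences of -4.58 and -4.79. Labelled as skin, the samples held fibroblast transcripts such as collagens in every mouse, while keratin genes were not among the genes measured.

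Between allo-WT and syngeneic skin, Gzma and Ifng rose and Klrk1 did not pass the test. These are 2 of 3 genes called higher, against 28.3% of all genes tested, with 14.9% called lower. Between allo-MCd and allo-WT skin, all 3 genes fell, against 50% of genes tested (348 of 696) called lower and 10.9% called higher. Between allo-MCd and syngeneic skin, Klrk1 alone of the 3 was called, and it was lower, as were 36.9% of genes tested, with 4.6% called higher. With each mouse scaled to its median gene the calls on these 3 genes were the same, but the split over all genes was different. In the order of the comparisons above it was 169 higher and 190 lower, 248 and 211, and 97 and 94, against 197 and 104, 76 and 348, and 32 and 257 on the deposited scale. The plot of values by mouse shows each gene against the background of its own lane. Skin is a mixed tissue, so fewer cells of a type and less RNA per cell cannot be told apart in any of these differences.

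**Figure D1:**
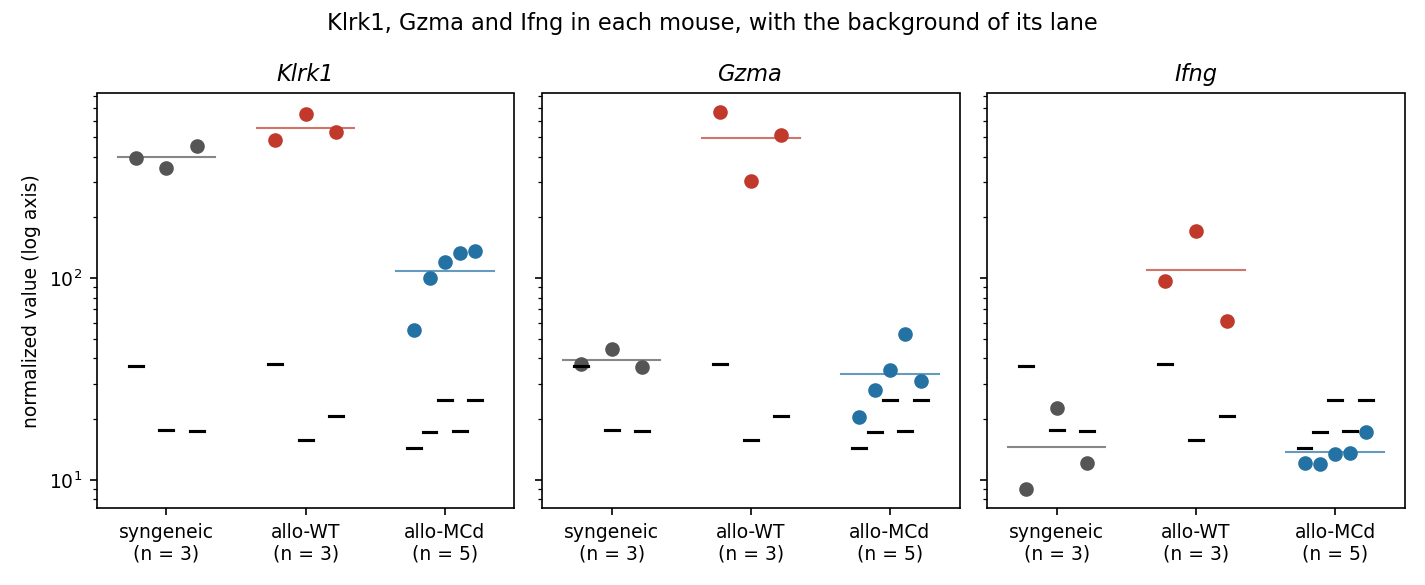
Normalized values (log axis) of Klrk1, Gzma and Ifng in each mouse of the 3 groups. Points are mice in the order of their numbers, colored horizontal lines are group means, and short black bars are the background of the same mouse. All 3 allo-WT mice lie above the other groups in each gene, and Ifng lies below the background in all 5 allo-MCd mice.

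Gzma encodes granzyme A, a serine protease of cytotoxic granules. Its normalized values were 37.41, 44.36 and 36.39 in syngeneic mice 1 to 3, and 664.2, 303.34 and 510.98 in allo-WT mice 1 to 3. In allo-MCd mice 1 to 5 the values were 20.5, 27.81, 35.12, 52.64 and 31.08. Every allo-WT mouse was above every other mouse, and the syngeneic and allo-MCd ranges overlapped. All 11 mice were above background, but syngeneic mouse 1 exceeded its background of 36.7 only narrowly, and recovered counts were 25 to 66 outside the allo-WT group, against 254 to 400 within it. The mean ± SD was 492.84 ± 181.11 in allo-WT (n = 3), 39.39 ± 4.34 in syngeneic (n = 3) and 33.43 ± 12.002 in allo-MCd mice (n = 5). Gzma was therefore 12.5-fold higher in allo-WT than syngeneic skin by means, a log2 difference of 3.55 (SE 0.38, limma adjusted p = 5.69e-05), or 3.29 after median scaling. Allo-MCd skin was 14.7-fold lower than allo-WT skin, with a log2 difference of -3.84 (SE 0.34, limma adjusted p = 2.43e-06), or -3.005 after median scaling. Without allo-WT mouse 1, the highest in Gzma, this difference was -3.59. Exact two-sided permutation tests gave p = 0.0179 for allo-MCd against allo-WT and p = 0.1 for allo-WT against syngeneic, in each case the smallest value that 56 or 20 arrangements allow. For allo-MCd minus syngeneic the log2 difference was -0.29 (95% interval -1.02 to 0.44, limma adjusted p = 0.493). Falls of up to about 1 and rises of up to about 0.44 on the log2 scale lay within this interval. After median scaling the sign of the difference turned, to 0.28.

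Ifng was near the limit of the assay outside the allo-WT group. Normalized values were 8.98, 22.72 and 12.13 in syngeneic mice 1 to 3, and 96.33, 171.97 and 61.32 in allo-WT mice 1 to 3. In allo-MCd mice 1 to 5 they were 12.15, 12.05, 13.43, 13.56 and 17.27. Ifng was above background in 3 of 3 allo-WT, 1 of 3 syngeneic and 0 of 5 allo-MCd mice, and each allo-WT mouse exceeded all mice of the other groups. These values rest on 38 to 144 recovered counts in allo-WT, 6 to 21 in syngeneic and 13 to 17 in allo-MCd mice. With each allo-MCd mouse set to the higher of its value and its background, Ifng was at least 5.0-fold higher in allo-WT than allo-MCd skin on the deposited scale. The measured means were 109.87 ± 56.56 (SD, n = 3) and 13.69 ± 2.12 (SD, n = 5), and allo-MCd minus allo-WT was -2.80 on the log2 scale (SE 0.38, limma adjusted p = 5.67e-05; exact permutation p = 0.0179), or -1.99 after median scaling. With the syngeneic mice treated in the same way, of which 1 was above background, Ifng was at least 3.99-fold higher in allo-WT skin on the deposited scale. Against the measured syngeneic mean of 14.61 ± 7.20 (SD, n = 3), allo-WT skin differed by 2.80 on the log2 scale (SE 0.42, limma adjusted p = 0.000412; exact permutation p = 0.1), or by 2.54 after median scaling. Leaving out allo-WT mouse 1, whose background was the highest, gave -2.83 between the allogeneic groups and 2.83 against syngeneic skin. Between allo-MCd and syngeneic skin no difference in Ifng was detectable at this depth (log2 difference -0.00, 95% interval -0.83 to 0.82, limma adjusted p = 0.997). After median scaling this difference was 0.55 and also not called (limma adjusted p = 0.306).

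Klrk1 was well above background in syngeneic skin as well as in both allogeneic groups. Its normalized values were 396.54, 350.52 and 453.18 in syngeneic mice 1 to 3, and 486.74, 654.45 and 532.7 in allo-WT mice 1 to 3. In allo-MCd mice 1 to 5 they were 55.43, 100.12, 119.84, 133.2 and 136.98. The 3 groups did not overlap, with allo-WT mice highest and allo-MCd mice lowest, and all 11 mice were above background. The mean ± SD was 557.96 ± 86.66 in allo-WT (n = 3), 400.08 ± 51.42 in syngeneic (n = 3) and 109.11 ± 33.30 in allo-MCd mice (n = 5). Klrk1 was 5.11-fold lower by means in allo-MCd than allo-WT skin, a log2 difference of -2.40 (SE 0.29, limma adjusted p = 2.58e-05; exact permutation p = 0.0179), or -1.56 after median scaling. It was also 3.67-fold lower in allo-MCd than syngeneic skin, a log2 difference of -1.93 (SE 0.29, limma adjusted p = 0.0013; exact permutation p = 0.0179), or -1.34 after median scaling. Whether the Klrk1 probe binds transcripts of LP/J and C57BL/6 mice alike was not tested, which touches the comparisons with syngeneic skin. The step from syngeneic to allo-WT skin, 0.48 on the log2 scale, was not called (95% interval -0.23 to 1.18, limma adjusted p = 0.238; exact permutation p = 0.1), and after median scaling it was 0.22. Under the methods' test, a 3-group comparison with Tukey's correction on the deposited values, this step was past the threshold before adjustment over genes but not after it (Benjamini-Hochberg adjusted p = 0.0652). Among allo-WT mice the order also differed between genes: Gzma was highest in mouse 1 and lowest in mouse 2, whereas Klrk1 and Ifng were highest in mouse 2.

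**Figure D2:**
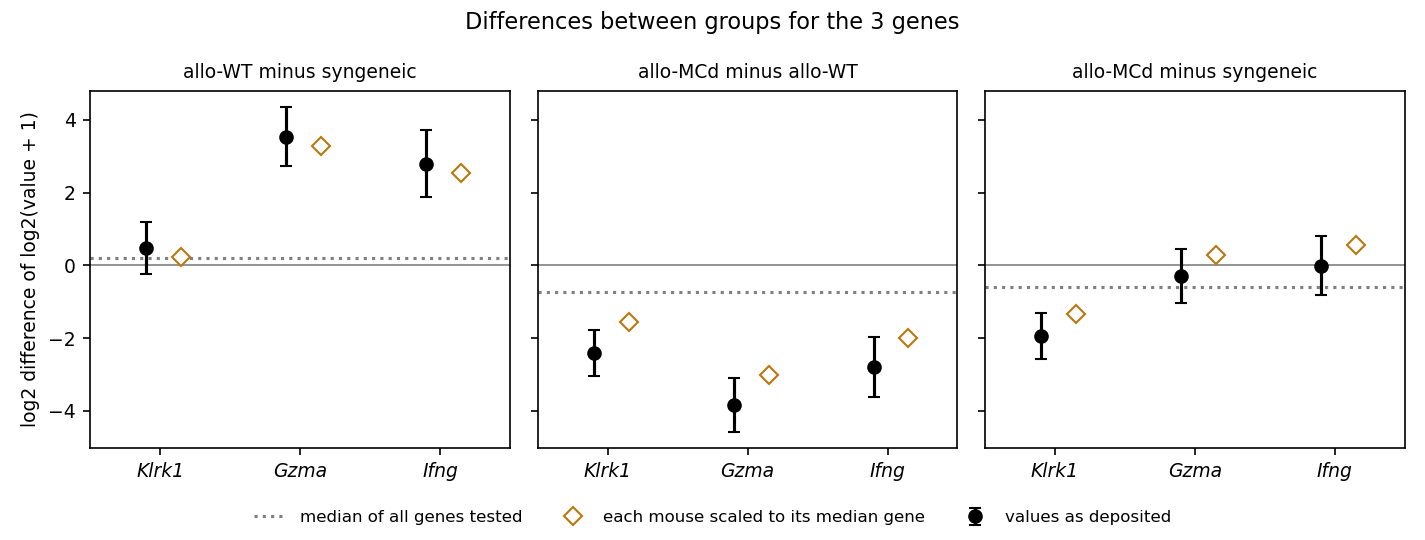
Differences between groups on the log2(value + 1) scale for Klrk1, Gzma and Ifng. Filled circles are deposited values with 95% intervals, open diamonds are values with each mouse scaled to its median gene, and dotted lines are the median over all genes tested. For allo-MCd minus allo-WT all 3 genes lie below the median gene at -0.72, and for allo-MCd minus syngeneic Klrk1 alone has an interval that does not reach 0.

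The ratio of Gzma to Klrk1 within a mouse does not depend on how that mouse was scaled, apart from the pseudocount. Ratios between the 3 genes were looked at after the values had been seen, and they are given as a description with no test. Because the genes have different probes, the ratio was read between groups and not as a level. On the log2 scale it was -3.37, -2.95 and -3.60 in syngeneic mice 1 to 3, and 0.45, -1.11 and -0.06 in allo-WT mice 1 to 3. In allo-MCd mice 1 to 5 it was -1.39, -1.81, -1.74, -1.32 and -2.10. The 3 groups did not overlap, with allo-MCd mice between syngeneic and allo-WT mice. The mean ratio was higher in allo-MCd than syngeneic skin by 1.64, while Gzma itself overlapped between these groups and Klrk1 was lower in allo-MCd skin. Allo-MCd was below allo-WT skin by a log2 ratio difference of -1.44, and allo-WT was above syngeneic skin by 3.07. Without allo-WT mouse 1 the difference between the allogeneic groups was -1.09, and with a pseudocount of 20 these groups overlapped. The other ratios rest on Ifng values at background in most mice outside the allo-WT group. The ratio of Ifng to Klrk1 differed by 2.32 between allo-WT and syngeneic skin without overlap (1.38 with a pseudocount of 20, 3.97 with negative controls subtracted). It differed by 1.92 between allo-MCd and syngeneic skin without overlap, though these groups overlapped with negative controls subtracted. Between the allogeneic groups it overlapped, with a difference of -0.40 that was 0.34 with a pseudocount of 20 and -1.86 with negative controls subtracted. The ratio of Gzma to Ifng overlapped in all 3 comparisons with all mice, but without allo-WT mouse 2 it did not overlap between allo-WT and syngeneic skin (1.44) or between the allogeneic groups (-1.73, against -1.035 with all mice).

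**Figure D3:**
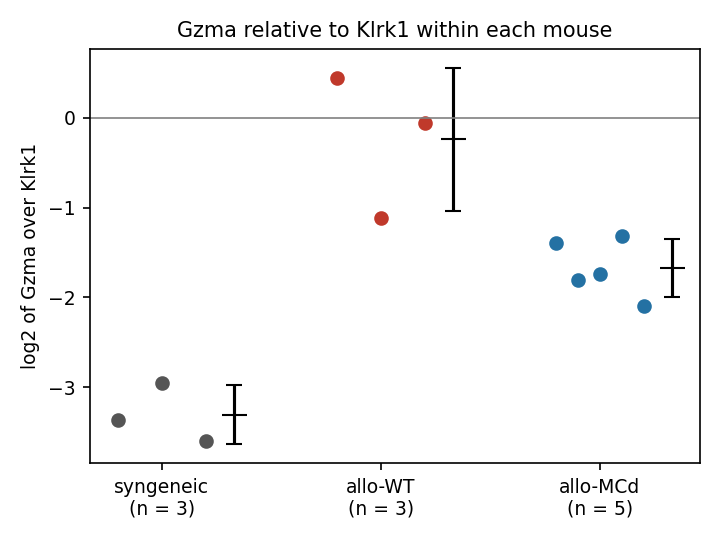
Log2 of the ratio of Gzma to Klrk1 in each mouse of the 3 groups. Points are mice in the order of their numbers, and bars are the group mean with its SD. Allo-MCd mice, between -2.10 and -1.32, lie above all syngeneic mice and below all allo-WT mice.

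The panel held 50 further genes in 7 lists around cytotoxic function and interferon gamma, of which 49 passed the filter on low values. Between allo-WT and syngeneic skin 28 of 49 (57.1%) were called higher and 2 (4.08%) lower, with a median log2 difference of 1.14 beside 0.21 over all genes, of which 28.3% were called higher and 14.9% lower. In allo-MCd against allo-WT skin 43 of 49 (87.8%) were called lower and 0 higher, with a median of -1.92 beside -0.72 over all genes, of which 50% were called lower. Limma gave 0 higher genes here also at an unadjusted p under 0.05, as did voom on the recovered counts, while 3 were called higher and 32 lower after median scaling, with a median of -1.11 beside 0.12 over all genes, of which 248 were higher and 211 lower. Against syngeneic skin 23 of 49 (46.9%) were called lower and 0 higher in allo-MCd skin, with a median of -0.75 beside -0.59 over all genes, of which 36.9% were called lower. The 0 also held at an unadjusted p under 0.05 and with voom, but median scaling gave 11 lower and 1 higher, beside 94 lower and 97 higher of the 696 genes tested. No gene that encodes an NKG2D ligand was measured.

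Of the killing genes other than Gzma, 3 of 3 rose in allo-WT against syngeneic skin and fell in allo-MCd against allo-WT skin, beside 28.3% of all genes called higher and 50% called lower. After median scaling 2 of 3 were called in each comparison, beside 169 of 696 genes called higher in the first and 211 called lower in the second. Nkg7, which encodes a granule membrane protein of cytotoxic cells, was 3.03-fold higher in allo-WT than syngeneic skin (log2 difference 1.56, limma adjusted p = 0.0128) and 4.74-fold lower in allo-MCd than allo-WT skin (-2.31, limma adjusted p = 0.000293). After median scaling these differences were 1.305 and -1.47. Serpinb9, an inhibitor of granzyme B, differed by 0.82 and -1.83 in the same comparisons, and by 0.565 and -0.99 after median scaling. Tnfsf10, which encodes the death ligand TRAIL, differed by 1.31 and -1.66, and neither call held after median scaling (1.06 and -0.82).

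Among 5 receptor and adaptor genes other than Klrk1, 4 rose and 1 fell from syngeneic to allo-WT skin, where 28.3% of all genes were called higher and 14.9% lower, and 4 fell from allo-WT to allo-MCd skin, where 50% of all genes did. After median scaling these counts were 3 and 1, beside 169 higher and 190 lower of 696 genes. In the second comparison they were then 4 lower and 1 higher, beside 211 and 248 of 696. Fcgr4, an activating Fc receptor found on myeloid cells, differed by 3.59 between allo-WT and syngeneic and by -4.63 between allo-MCd and allo-WT skin (-3.79 after median scaling). Cd69, an early activation marker of lymphocytes, differed by 1.47 and -3.06 and Cd27, a costimulatory receptor, by 2.10 and -2.12. After median scaling the second of these was -2.22 for Cd69 and -1.30 for Cd27, and Cd27 was above background in 1 of 3 syngeneic and 2 of 5 allo-MCd mice. Tyrobp, which encodes the adaptor DAP12 used by NKG2D and by many myeloid receptors, differed by 0.94 and -2.74, and its first call did not hold after median scaling. Cd244, which encodes the NK receptor 2B4, went the other way. Its mean ± SD was 517.95 ± 80.67 in syngeneic (n = 3), 119.27 ± 42.91 in allo-WT (n = 3) and 123.03 ± 58.04 in allo-MCd mice (n = 5). It was lower in allo-WT than syngeneic skin by -2.16 (limma adjusted p = 0.00136) and lower in allo-MCd than syngeneic skin by -2.16 (limma adjusted p = 0.00138), with no overlap of the syngeneic mice with either group. The allogeneic groups differed by 0.00 on the deposited scale (limma adjusted p = 0.997) and by 0.84 after median scaling, where Cd244 was called higher in allo-MCd skin. Both allogeneic groups received LP/J donor cells, so a lower Cd244 level and a strain difference in how the probe binds cannot be told apart.

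The T-cell marker list had 4 genes on the panel, and none of the CD3, CD4 or CD8 genes was measured. Icos, an inducible costimulatory receptor, rose by 1.89 from syngeneic to allo-WT skin and Cd28, the constitutive one, by 1.15. Cd247, the zeta chain of the T-cell receptor complex, and Lat, its signalling adaptor, differed by 0.09 and 0.31 and were not called. All 4 were lower in allo-MCd than allo-WT skin, where 50% of all genes were, Icos by -3.41, Cd28 by -2.34, Lat by -1.27 and Cd247 by -1.07. After median scaling the differences of Icos and Cd28 were -2.57 and -1.51, and the calls on Lat and Cd247 did not hold. Lat was above background in 2 of 3 allo-WT and 2 of 5 allo-MCd mice. Each of the 4 was also lower in allo-MCd than syngeneic skin, by -1.52 to -0.97, beside 36.9% of all genes, but 1 was called after median scaling, beside 94 of 696 genes.

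Of 6 transcription factor and homing receptor genes, 4 rose in allo-WT against syngeneic skin and 5 fell in allo-MCd against allo-WT skin, beside 28.3% and 50% of all genes. After median scaling 3 were called higher in the first comparison, beside 169 of 696 genes. In the second 4 were lower and 1 higher, beside 211 and 248 of 696. The 1 called higher was Id2 (0.43), which encodes an inhibitor of DNA binding and was chosen after its values were seen. The chemokine receptor genes Cxcr6 and Cxcr3, whose receptors guide effector lymphocytes into tissue, differed by 1.41 and 1.26 between allo-WT and syngeneic skin. Between allo-MCd and allo-WT skin they differed by -2.36 and -1.75, or by -1.52 and -0.92 after median scaling. Stat4, which carries the interleukin-12 signal that induces Ifng, was above background in 3 of 3 allo-WT, 1 of 3 syngeneic and 0 of 5 allo-MCd mice. It was at least 2.43-fold higher in allo-WT than allo-MCd skin on the deposited scale, and its call against syngeneic skin did not hold after median scaling.

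Among 8 tested cytokine and receptor genes upstream of Ifng, 2 rose and 1 fell from syngeneic to allo-WT skin, near the 28.3% and 14.9% of all genes, with a median difference of 0.12 beside 0.21. From allo-WT to allo-MCd skin 5 of the 8 fell, beside 50% of all genes. After median scaling 1 was higher and 1 lower in the first comparison, beside 169 and 190 of 696 genes. In the second 3 were lower and 1 higher, beside 211 and 248 of 696. Il21r, the interleukin-21 receptor gene, differed by 2.96 and -3.19, the latter -2.36 after median scaling. The genes for the interleukin-12 p40 subunit (Il12b), the interleukin-15 receptor alpha chain (Il15ra) and interleukin-18 (Il18) were lower in allo-MCd than allo-WT skin by -1.93, -1.64 and -1.38. The call on Il12b did not hold after median scaling, and it was above background in 2 of 5 allo-MCd mice. Il12a, which encodes the p35 subunit of interleukin-12, differed by -0.93 between allo-WT and syngeneic skin and by -0.03 between the allogeneic groups. It was above background in 2 of 3 syngeneic, 1 of 3 allo-WT and 2 of 5 allo-MCd mice, so these values, and a call of 0.78 between the allogeneic groups after median scaling, rest on counts near background.

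Whether interferon gamma caused the differences of the genes listed as its targets or signalling genes was not tested. Among the signalling genes, Irf1 and Socs1 rose by 2.58 and 1.83 from syngeneic to allo-WT skin. From allo-WT to allo-MCd skin they differed by -2.85 and -2.58, or by -2.002 and -1.73 after median scaling. Ifngr1, the ligand-binding receptor chain, differed by -0.28 and -0.82 in these comparisons. The second alone was called on the deposited scale, but after median scaling it was 0.02 and not called, while the first was -0.535 and called lower (limma adjusted p = 0.0343). Of 19 interferon gamma target genes, 10 rose and 0 fell in allo-WT against syngeneic skin, beside 28.3% and 14.9% of all genes, and 18 fell in allo-MCd against allo-WT skin, beside 50%. After median scaling 14 of the 19 were called lower in the latter, beside 211 of 696 genes. Against syngeneic skin 7 of the 19 were called lower in allo-MCd skin, a share near the 36.9% of all genes, among them the MHC class II genes H2-Aa (-1.64) and H2-Ab1 (-1.58). After median scaling 6 were lower and 1 higher, beside 94 and 97 of 696 genes. The chemokine genes Cxcl9, Cxcl10, Ccl5 and Cxcl11 differed by 6.11, 5.08, 4.68 and 4.39 between allo-WT and syngeneic skin and by -5.24, -4.20, -3.75 and -3.97 between allo-MCd and allo-WT skin (-4.40, -3.355, -2.91 and -3.15 after median scaling). Cxcl11 was above background in 1 of 3 syngeneic and 3 of 5 allo-MCd mice. Against syngeneic skin these chemokine genes were not called in allo-MCd skin, with differences of 0.86, 0.88, 0.93 and 0.42, except that Cxcl10 was called higher after median scaling.

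**Figure D4:**
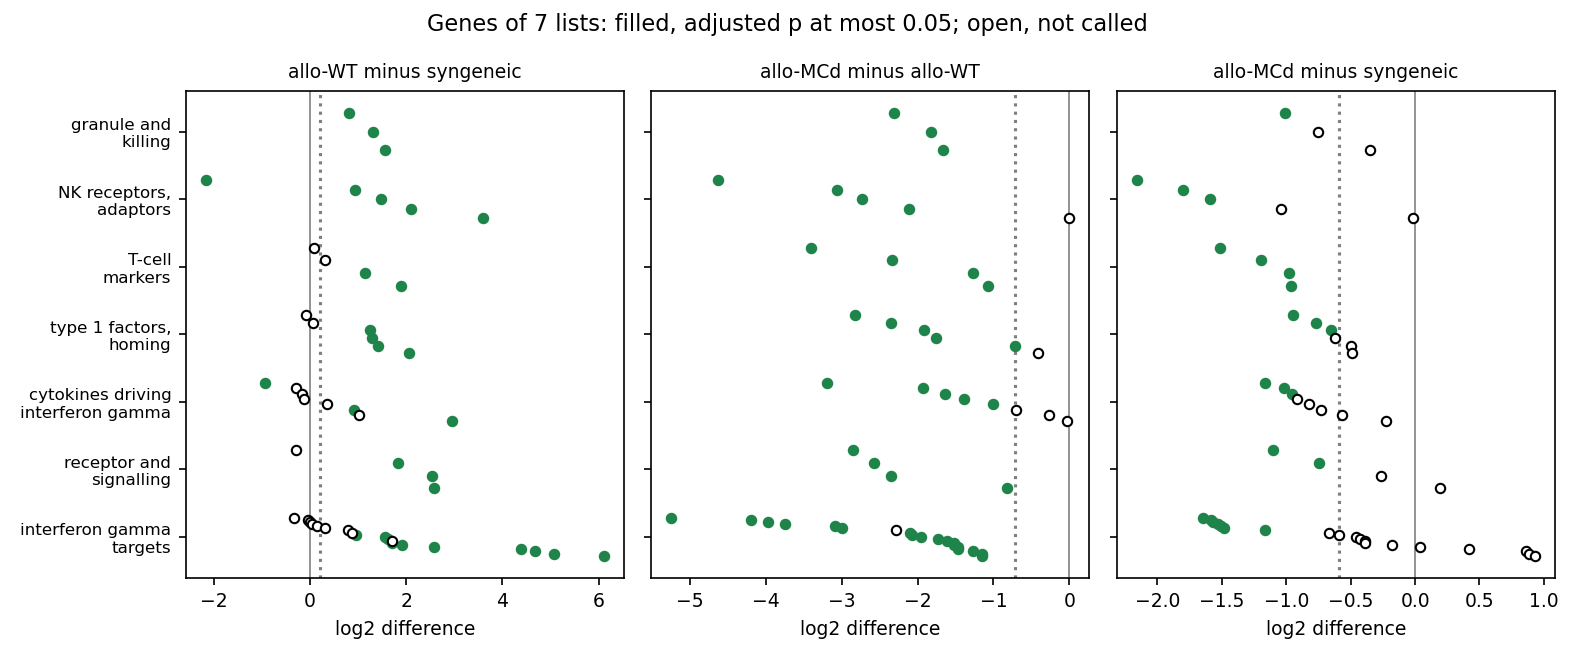
Log2 differences of the 49 tested genes of 7 lists, with Klrk1, Gzma and Ifng left out, in the 3 comparisons. Filled points passed an adjusted p of 0.05, open points did not, and dotted lines are the median over all genes tested. In allo-MCd minus allo-WT 43 of 49 points are filled and all of these lie below 0.

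Markers of other cells moved with these groups, and their counts below stand beside the 50% of all genes called lower in allo-MCd against allo-WT skin. The summed values of the 4 T-cell markers were 432.5 to 476.3 in syngeneic, 867.4 to 1200.2 in allo-WT and 149.2 to 254.4 in allo-MCd mice. Those of 7 macrophage and monocyte markers, of which 7 fell from allo-WT to allo-MCd skin, were 15003 to 17005, 24095 to 39865 and 4176 to 8183. Among neutrophil markers 5 of 5 tested fell between the allogeneic groups, and the sums of all 7 were 513.8 to 740.7, 3929.5 to 133582 and 554.8 to 1167.1 in the same order of groups. The 8 mast cell markers, all lower in allo-MCd than allo-WT skin, summed to 4004 to 9755, 2472 to 14952 and 185.3 to 703.5. Of 5 dendritic cell markers 2 fell, with sums of 427.3 to 495.1, 367.6 to 514.8 and 159.5 to 378.7, and of 5 fibroblast and skin structural markers 1 fell, with sums of 89814 to 189770, 12951 to 135370 and 36983 to 86742. After median scaling the markers called lower between the allogeneic groups were 2 of 4 for T cells, 6 of 7 for macrophages and monocytes, 4 of 5 for neutrophils, 6 of 8 for mast cells, 1 of 5 for dendritic cells and 0 of 5 for skin structure, beside 211 of the 696 genes tested. No marker of these lists was at 0 in any mouse, and B-cell markers were represented by Ms4a1, which was not tested. The part of these cells in the differences of Klrk1, Gzma and Ifng was not tested.

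Genes with a pattern like that of each of the 3 genes were ranked by Pearson's r of log2(value + 1) over the 11 mice, as a description. These mice fall into 3 groups and share the scaling, and the median r over 693 genes was 0.60 for Klrk1, 0.46 for Gzma and 0.44 for Ifng. Closest to Klrk1 were H2-Aa and H2-Ab1, genes of MHC class II, Clec7a, the receptor gene for fungal beta-glucan, Tlr9, a DNA sensor gene, and Cd86, a costimulatory ligand gene, with r of 0.97 to 0.98. Like Klrk1, these 5 had syngeneic values well above those of allo-MCd mice: H2-Aa spanned 42678 to 57289 in syngeneic, 50915 to 78819 in allo-WT and 11019 to 25594 in allo-MCd mice. Among the 5 genes closest to Gzma were Ccl8, a chemokine gene, Rab20, a small GTPase gene, Il21r and Csf3r, the G-CSF receptor gene, with r of 0.97 to 0.98. Csf3r spanned 89.31 to 107.74 in syngeneic, 513.53 to 1143.33 in allo-WT and 37.21 to 90.85 in allo-MCd mice, so that the outer groups overlapped as they did in Gzma. Closest to Ifng were Cxcl16, a chemokine gene, Chil4, a chitinase-like gene, Itgal, which encodes the integrin CD11a, Psme2, a proteasome activator gene, and Irf1, with r of 0.95 to 0.97. After median scaling 5, 4 and 4 of the 5 genes closest to Klrk1, Gzma and Ifng were again among the closest 5. Rab20 was then at rank 59 for Gzma (r of 0.85), and Irf1 at rank 7 for Ifng. Between the 3 genes themselves, r was 0.91 for Gzma and Ifng, 0.71 for Klrk1 and Gzma and 0.64 for Klrk1 and Ifng.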

How the data were processed

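Skin RNA from 11 mice (100 ng each, 1 lane per mouse) was run on the NanoString Myeloid Innate Immunity panel. The deposited signal is linear and consists of molecule counts that the authors normalized in nSolver; which housekeeping genes they used, and whether background was subtracted, is not given in the sources used here. The geometric mean of 20 listed housekeeping genes was 1104.0 in 10 mice and 1089.2 in allo-MCd mouse 5. Of the gene values up to 300, between 99.74% and 100% per mouse were whole multiples of 1 factor (within 0.011), from which counts were recovered. Control probes are deposited as raw counts and were brought to the scale of the genes with this factor.

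Of 734 genes other than housekeeping genes, 696 reached 20 in 3 or more mice and were fitted in limma 3.58.1 (R 4.3.3) on log2(value + 1) of the deposited values, with a trend and all groups in 1 fit, and adjusted by Benjamini-Hochberg. Exact permutation tests were two-sided. Nothing links the mice to separate transplants, so p-values measure the spread between these mice. The 3 genes, the lists and the tests were chosen with earlier results of these data known. Genes named beside Klrk1, Gzma and Ifng were, per list, at most the 4 with the largest called difference in each direction of a comparison with allo-WT skin, the 5 with the most similar pattern, and Kit, Cma1 and Cpa3. Some genes that this rule would name are not reported here. Python 3.11.15 (pandas 2.3.3, scipy 1.17.1, matplotlib 3.10.9) read and plotted the values. Promoters are from RefSeq tables of GRCm38.p6, in which 744 gene symbols matched, 9 matched by synonym and 1 did not.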

Additional observations from a re-analysis of the deposited data

Results flagged for a closer look

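Single mice stood apart within the allo-MCd group in 7 of the 46 named genes, each being the highest of its 5 mice by a gap that exceeds Dixon's 95% critical value. Chance alone marks about 1 in 20 such groups of independent, normally distributed values. The values here are linear and the genes share the same 5 mice, so the count cannot be set against that rate. Mouse 5 was highest in Ifng at 17.27, next to 13.56, and this value was still below its background of 24.9. The same mouse was highest in Cd244 at 222.17 (next 110.07), in Icos at 85.18 (next 58.88) and in Id2 at 3842.46 (next 3042.15). Mouse 4 was highest in Cxcl9 at 2157.58 (next 738.64), in Fcgr4 at 337.4 (next 134.42) and in Il21r at 67.8 (next 32.03). Mouse 4 also had the highest Gzma value of its group, 52.64, next to 35.12.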

How the results depend on the processing

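No call on Klrk1, Gzma or Ifng between allo-MCd and allo-WT skin was lost under any alternative run, and log2 differences ranged from -2.65 to -1.49, -4.37 to -2.93 and -4.38 to -1.74. Between allo-WT and syngeneic skin the calls on Gzma and Ifng also held, with ranges of 3.046 to 4.184 and 1.838 to 4.46. The -4.38 and 4.46 of Ifng are from subtraction of negative controls, in which values under 1 were set to 1. The 1.838 is from a pseudocount of 20. The alternatives were other pseudocounts and filters, scaling to the median gene, quantile normalization, a rescaling to housekeeping genes, subtraction of negative controls, limma without or with a robust trend, only the groups compared, the methods' test, the replicate block, and voom on recovered counts, an alternative added after seeing the data. The housekeeping rescaling could change little, because the geometric mean of these genes was already 1104.0 in every mouse but allo-MCd mouse 5. The planned count-model tests were not run, because the deposited unit is not a count. The Klrk1 difference of 0.48 between allo-WT and syngeneic skin was past the threshold under the methods' test alone (0.476, unadjusted over genes). For allo-MCd minus syngeneic, signs that were not called turned for Gzma under median scaling (0.284) and quantile normalization (0.309). For Ifng they turned under median scaling (0.551), quantile normalization (0.629), housekeeping rescaling (0.002) and subtraction of negative controls (0.08). The causes were not tested. With each mouse left out in turn, Ifng ranged from -0.276 to 0.349 in this comparison, positive without syngeneic mouse 2 (0.349) and without allo-MCd mice 1 to 3, and from -3.15 to -2.42 between the allogeneic groups, where Gzma ranged from -4.15 to -3.59 and Klrk1 from -2.50 to -2.18.

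Of the 49 list genes, 2 were called lower in allo-WT than syngeneic skin. This was 1 with a filter of at least 50, with only the groups compared and with the replicate block, 4 with quantile normalization and 1 to 2 with each mouse left out, 1 without syngeneic mouse 1, 2 or 3 or allo-WT mouse 2 or 3. Genes called higher in allo-MCd than allo-WT skin went from 0 to 3 under median scaling and under quantile normalization. Against syngeneic skin they went from 0 to 1 in both, and the 23 called lower went to 11 and 10, and to 16 to 26 with each mouse left out.

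The labels share mouse numbers between groups. Deviations of same-numbered mice correlated at -0.112 to 0.211 over 9 pairs, with 3 over 0.1, so the numbers were not taken as pairs. With the number as a replicate block Gzma differed by -4.06 between allo-MCd and allo-WT skin (limma adjusted p = 0.000135), and no call on the 3 genes changed. Over all genes, leaving out allo-WT mouse 1 moved those called higher in allo-MCd than allo-WT skin from 76 to 48. Those called lower in allo-WT than syngeneic skin went from 104 to 69 without syngeneic mouse 1 and to 64 without syngeneic mouse 3, and those called lower in allo-MCd than syngeneic skin from 257 to 166 and 168. Background limits Ifng outside allo-WT skin, and with 3 mice in each group the permutation test of allo-WT against syngeneic skin cannot go below p = 0.1.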
